A study of Mus musculus with 15 samples.

Results

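Interneuron marker genes of the cortex were described by 10 transcripts of 9 genes, out of 10370 transcripts and 7740 annotated genes in the table. The members were every listed transcript whose GENCODE M21 gene name was Gad1, Gad2, Slc32a1, Pvalb, Sst, Npy, Vip, Cck or Reln. All 9 genes were listed, with 10 of their 38 annotated transcripts. Cortex was dissected from male C57BL/6 mice, labelled as 12 weeks old, and its RNA sequenced at 1 month after a Sham procedure (Sham, 7 libraries) or high-frequency head impact (HF-HI, 8 libraries). The labels do not say whether the age is that at impact or at collection. No transgene, deletion or drug is named in the labels of either group, and HF-HI is a model in which anesthetized mice receive repeated mild impacts to the head. The comparison asks whether RNA of inhibitory neurons differed in the cortex 1 month after the impacts, and whether the markers of interneuron classes rose and fell together across animals. The labels number the samples separately, so p-values measure the spread between these libraries.

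Cortical interneurons are local neurons that release the inhibitory transmitter GABA. Gad1 and Gad2 encode the enzymes GAD67 and GAD65 that make GABA from glutamate, and Slc32a1 encodes the transporter that loads it into synaptic vesicles, so these genes mark inhibitory neurons of every class. The other members mark classes: Pvalb the fast-spiking cells, Sst the cells that contact dendrites, Vip the cells that mostly inhibit other interneurons, and Npy, Cck and Reln further, partly overlapping groups. Some of these RNAs are not confined to interneurons, since Cck is also made by cortical excitatory neurons and Gad1, Gad2 and Slc32a1 by the projection neurons of the striatum next to the cortex.

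Levels are given as normalized counts, that is, reads divided by the size factor of the library, recovered from the deposited variance-stabilized (VSD) values. The listed transcripts held between 3496103 reads (HF-HI replicate 4) and 10582858 reads (Sham replicate 4). HF-HI libraries were shallower, with a difference of -0.55 in mean log2 size factor (exact permutation p = 0.0280), so depth and group overlapped. The dissected tissue carried all 10 of 10 markers of cortical excitatory neurons, with a summed level of 16364 to 19214 normalized counts. Markers of striatal projection neurons were listed for 9 of 11 genes, with a summed level of 7364 to 10997 in Sham and 5144 to 10582 in HF-HI, while Drd2 and Gpr6 were not listed. Of the other marker lists, 0 of 5 genes of hippocampus, 1 of 5 of thalamus (Slc17a6) and 1 of 7 of choroid plexus (Ttr, from 21.0 to 8663 normalized counts) were listed.

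Sequences are shown where they distinguish members or carry a motif known from these genes. The listed Gad1 transcripts differ at their start, and the sequences below show, in GENCODE M21 on GRCm38, how each enters the exon at chr2:70567186-70567248 that they share, with the first 20 bases of that shared exon in capitals. ENSMUST00000094934 enters it from the coding part of its exon 2 (chr2:70563832-70563910, plus strand, 79 bases), and ENSMUST00000140478, annotated as a processed transcript with no coding sequence, enters it from its exon 1 (chr2:70566377-70566453, plus strand, 77 bases).
Gad1 ENSMUST00000094934: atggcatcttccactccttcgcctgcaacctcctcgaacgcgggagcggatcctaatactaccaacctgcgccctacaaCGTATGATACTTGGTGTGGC
Gad1 ENSMUST00000140478: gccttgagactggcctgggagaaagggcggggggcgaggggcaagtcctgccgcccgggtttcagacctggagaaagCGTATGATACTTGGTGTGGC

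The cAMP response element (CRE), TGACGTCA, was first described in the Sst promoter and is a binding site of CREB, a factor activated by neuronal activity. It was searched on both strands of the 250 bases before each RefSeq start site (GRCm38.p6), together with its shorter form TGACG, which every CRE contains, the TATA box TATAAA and the E-box CACGTG. Among 32851 promoters, 1.55% held TGACGTCA, 17.8% held TGACG, 12.4% held TATAAA and 6.02% held CACGTG. Of the members, Sst alone held the full CRE, with its first base 48 bases before the RefSeq start. TGACG was also found once in Gad2, Vip and Cck, TATAAA in Gad1 and Vip, and CACGTG in Cck and Reln, while no match was found in Slc32a1, Pvalb or Npy. The sequences are shown 5′ to 3′ along each gene's strand, with matches in capitals: 30 bases around the match of Sst (chr16:23890874-23890903, minus strand) and of Gad2 (chr2:22622282-22622311, plus strand), and the last 150 bases before the start of Vip (chr10:5639068-5639217, plus strand) and Cck (chr9:121495695-121495844, minus strand), whose levels moved together. GENCODE M21 starts the listed transcripts of Sst (chr16:23890958) and Gad2 (chr2:22622205) further upstream than RefSeq. By that annotation the sites shown for these 2 genes lie inside the transcripts. A match describes letters only and is not a measured binding site.
Sst: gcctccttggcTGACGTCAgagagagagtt
Gad2: ccatttcccttcCGTCActctctcatctcc
Vip: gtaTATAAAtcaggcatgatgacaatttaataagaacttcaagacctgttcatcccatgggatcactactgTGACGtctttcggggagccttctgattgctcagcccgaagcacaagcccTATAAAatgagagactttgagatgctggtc
Cck: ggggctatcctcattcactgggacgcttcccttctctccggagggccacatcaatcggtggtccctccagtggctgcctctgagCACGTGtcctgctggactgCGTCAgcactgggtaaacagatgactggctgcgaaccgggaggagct

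Per kilobase of transcript, Cck, a peptide precursor, was the most abundant member and Reln, a secreted matrix protein, the least. The mean over 15 libraries was 2033 ± 122 (SD) normalized counts per kb for Cck, 894 ± 108 for Sst, 705 ± 68.4 for Npy and 523 ± 71.9 for the coding Gad1 transcript. The levels of Pvalb (435 ± 60.9), Gad2 (235 ± 20.3), Vip (160 ± 18.3), Slc32a1 (140 ± 15.8) and Reln (102 ± 7.16 normalized counts per kb) followed. Most neighbours in this order were separated in all 15 libraries. An exception was the coding Gad1 transcript, which exceeded Pvalb in 11 of 15 libraries. The others were Vip, which exceeded Slc32a1 in 11 of 15, and Slc32a1, which exceeded Reln in 14 of 15. The processed Gad1 transcript, left out of this order, held a further 293 ± 87.3 normalized counts per kb. The place of Gad1 in the order therefore depends on how reads were divided between its transcripts.

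None of the 10 transcripts passed an unadjusted p under 0.05 in limma for HF-HI against Sham (0 of 10), and none passed the adjusted threshold of 0.1. Over all transcripts, 8.83% passed the unadjusted threshold (916 of 10370), 4.94% with a higher and 3.9% with a lower level in HF-HI, and 0 of 10370 passed the adjusted threshold. The members' unadjusted p ranged from 0.179 for Slc32a1 to 0.857 for Cck in limma. The groups overlapped in all 10 transcripts, while 0.154% of all transcripts had groups that did not overlap. In bulk cortex, fewer cells of a type and less RNA per cell cannot be told apart.

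**Figure D1:**
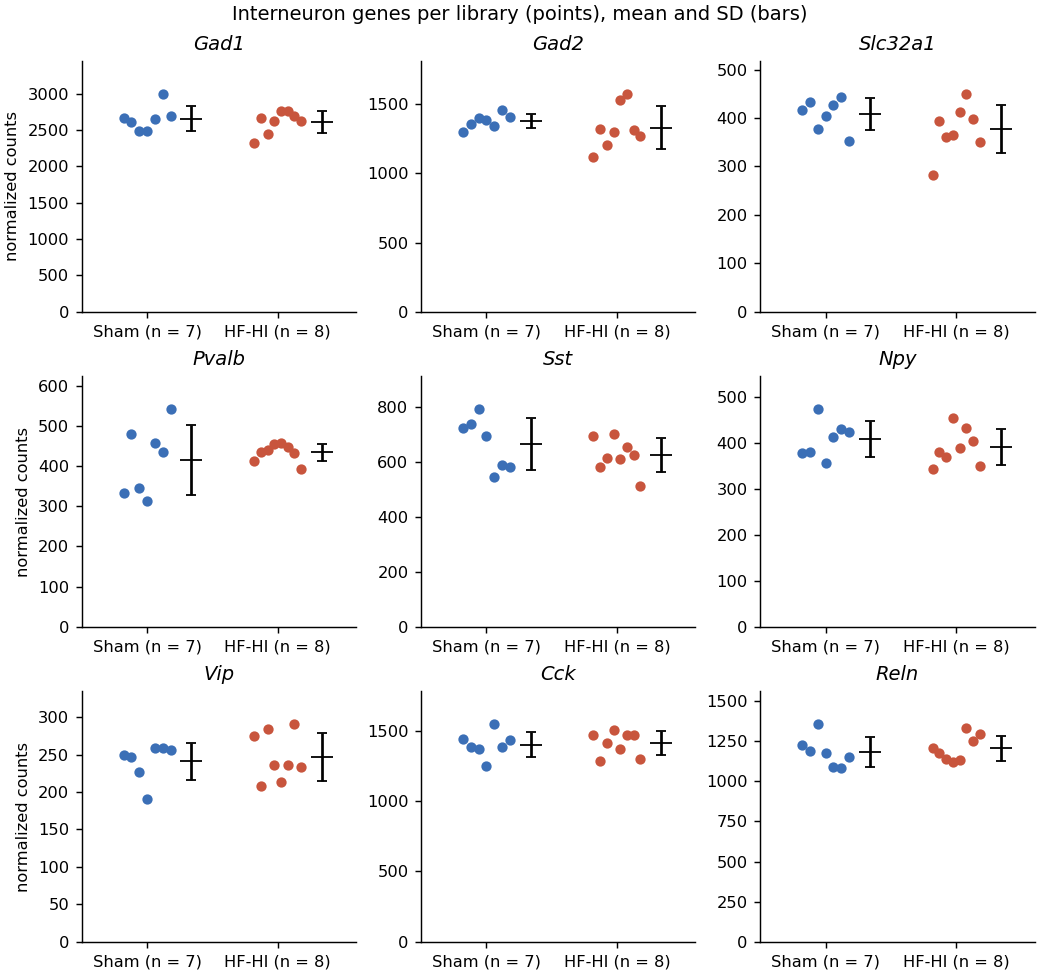
Normalized counts of the 9 interneuron genes (vertical axes, each from 0) in each of 7 Sham (blue) and 8 HF-HI (red) libraries, with Gad1 as the sum of both listed transcripts. Points are libraries and black bars show mean and SD. The groups overlap in every panel, HF-HI replicate 1 (the first red point) is the lowest library for Gad1, Gad2, Slc32a1 and Npy, and the Sham points of Pvalb spread from 312 to 542 against 393 to 458 in HF-HI.

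None of the genes of GABA synthesis and vesicular loading separated the groups. Gad1, summed over both transcripts, ranged from 2483 to 2997 normalized counts in Sham (median 2647) and from 2324 to 2764 in HF-HI (median 2643). HF-HI replicate 1 was lowest and Sham replicate 6 highest, and the remaining libraries lay between them without separation by group. The difference of the gene sum was -0.03 ± 0.04 (SE) in log2 units (95% interval -0.12 to 0.06, limma with voom on reads per gene, unadjusted p = 0.519, adjusted p = 0.888).

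Gad2 ranged from 1300 to 1461 normalized counts in Sham (median 1389) and from 1117 to 1575 in HF-HI (median 1307). The HF-HI libraries reached both further down and further up than the Sham libraries, with 4 of 8 at or below the lowest Sham library, of which HF-HI replicate 4 equalled it when rounded, and 2 of 8 above every one. The difference was -0.06 (95% interval -0.19 to 0.08) in log2(normalized count + 1), an interval of -12.6% to 5.36%, with a limma adjusted p of 0.831 on the deposited values. The spread of Gad2 around the group median did not pass an exact permutation test of the spread (p = 0.138, adjusted p = 0.999).

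Slc32a1, the vesicular GABA transporter, ranged from 352 to 444 normalized counts in Sham (median 416) and from 282 to 450 in HF-HI (median 380). Of the HF-HI libraries, 1 of 8 lay above the Sham median, and HF-HI replicate 1 was the lowest of all. The difference in log2(normalized count + 1) was -0.12 ± 0.08 (SE; 95% interval -0.30 to 0.06), an interval of -18.8% to 4.24%. It did not pass on the deposited values (limma unadjusted p = 0.179, adjusted p = 0.716).

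Among the class markers, Pvalb, which encodes the calcium-binding protein parvalbumin, had similar means but unequal spread. Its level ranged from 312 to 542 normalized counts in Sham (median 436) and from 393 to 458 in HF-HI (median 437). Sham replicates 1, 3 and 4 lay below every HF-HI library, Sham replicates 2 and 7 lay above every one, and Sham replicate 5 and the highest HF-HI library were both at 458. The difference in mean was 0.09 in log2(normalized count + 1) (95% interval -0.13 to 0.31), with a limma adjusted p of 0.869 on the deposited values. The SD of log2 levels was 0.30 in Sham and 0.074 in HF-HI, and the mean absolute deviation from the group median was wider in Sham with an exact two-sided permutation p of 0.0134, in a test chosen after the data were seen. That p did not hold over all transcripts (adjusted p = 0.999), of which 4.21% passed the unadjusted threshold, 0.723% with the wider spread in Sham and 3.49% with the wider spread in HF-HI. Pvalb was the single member of the 10 transcripts below an exact p of 0.05.

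Sst, the precursor of the peptide somatostatin, ranged from 545 to 794 normalized counts in Sham (median 694) and from 513 to 701 in HF-HI (median 620). Of the HF-HI libraries, 2 of 8 lay above the Sham median, and the Sham libraries fell on both sides of most HF-HI libraries. The difference in log2(normalized count + 1) was -0.09 (95% interval -0.27 to 0.10), with a limma adjusted p of 0.802 on the deposited values.

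Npy, the precursor of neuropeptide Y, ranged from 358 to 475 normalized counts in Sham (median 413) and from 344 to 455 in HF-HI (median 385). The ranges covered each other almost entirely. The difference in log2(normalized count + 1) was -0.06 (95% interval -0.22 to 0.09), with a limma adjusted p of 0.834 on the deposited values. With log2 size factor as a covariate, the VSD difference of Npy went from -0.020 to -0.059 and its unadjusted limma p to 0.0192, the one setting of 25 in which a member transcript passed.

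Vip, the precursor of vasoactive intestinal peptide, ranged from 191 to 259 normalized counts in Sham (median 250) and from 208 to 291 in HF-HI (median 236). HF-HI replicates 1, 3 and 7 lay above every Sham library, and Sham replicate 4 lay below every HF-HI library. The difference in log2(normalized count + 1) was 0.03 (95% interval -0.16 to 0.22), with a limma adjusted p of 0.937 on the deposited values.

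Cck, the precursor of cholecystokinin, ranged from 1247 to 1547 normalized counts in Sham (median 1382) and from 1283 to 1502 in HF-HI (median 1439). The HF-HI range lay inside the Sham range. Its interval was the narrowest of the members, -6.15% to 7.84%, around a log2 difference of 0.01 (limma adjusted p = 0.97 on the deposited values).

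Reln, which encodes the matrix protein reelin, ranged from 1082 to 1356 normalized counts in Sham (median 1172) and from 1118 to 1331 in HF-HI (median 1188). The HF-HI range again lay inside the Sham range. The log2 difference was 0.03 (interval -5.49% to 10.3%), with a limma adjusted p of 0.905 on the deposited values.

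**Figure D2:**
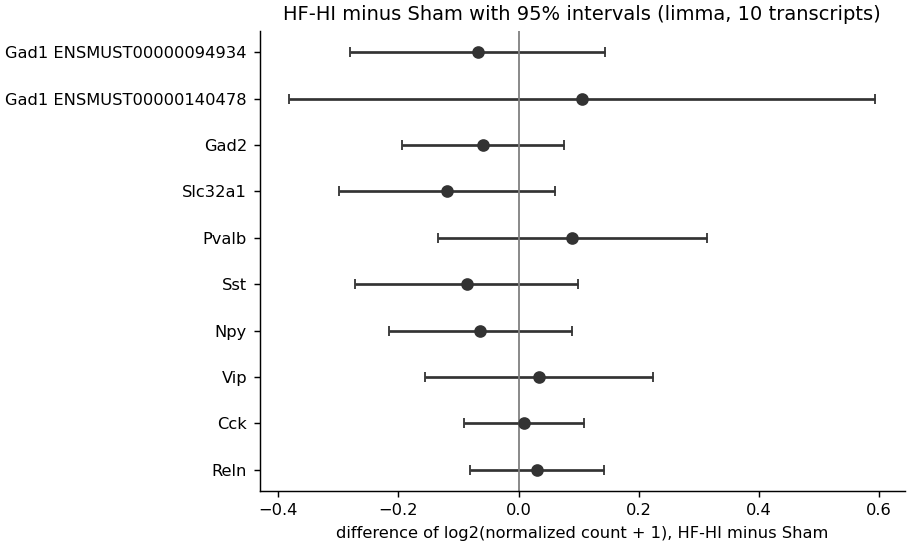
Difference of log2(normalized count + 1) between HF-HI and Sham (horizontal axis) for the 10 listed transcripts, with 95% intervals from limma (n = 7 Sham and 8 HF-HI). Every interval includes 0, and the widest belongs to the processed Gad1 transcript (-0.38 to 0.59).

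Gad1 was the one member with several listed transcripts, and its reads were divided very differently between them from library to library. ENSMUST00000094934 (17 exons, 3355 bases, protein coding) and ENSMUST00000140478 (16 exons, 2996 bases) share 2919 bases and have 436 and 77 bases of their own, so the division rests on few bases and on how the authors' program assigned shared reads. The processed transcript held from 15.7% of the Gad1 reads in Sham replicate 2 (444 of 2831 reads, 95% exact binomial interval 14.4% to 17.1%) to 48.2% in HF-HI replicate 2 (833 of 1729 reads, 45.8% to 50.6%). These intervals lie far apart, but they take each assigned read as observed. They leave out the error of dividing shared reads, so they are too narrow for the share itself. Both groups held low and high shares, with means of 32.0% ± 10.4 (SD, n = 7) in Sham and 34.2% ± 8.76 (n = 8) in HF-HI (exact two-sided permutation p = 0.660).

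The Gad1 transcripts moved against each other while their sum changed little. Over 15 libraries, the log2 levels of the transcripts had r = -0.795 (permutation p = 0.00037, adjusted p = 0.0037 over 10 relations) and rho = -0.807 (p = 0.00038). The relation was r = -0.662 (permutation p = 0.0136) without Sham replicate 2 and HF-HI replicate 2, -0.810 within Sham (exact p = 0.0270) and -0.777 within HF-HI (exact p = 0.0204). The coefficient of variation over libraries was 13.7% for the coding and 29.8% for the processed transcript, against 6.00% for their sum, of which counting error alone gives 2.0%. Reads shared by the transcripts were divided between them, so the part given to either was taken from the other. With the nearly constant sum seen here, a negative r follows by arithmetic, and its p-values do not test a relation of independent levels. Whether the division came from the assignment of reads or from the RNA itself was not tested. These relations were chosen after the data were seen.

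The share of the processed transcript was set against the other members and depth as well. Its largest r in size was against Sst, at -0.622 (permutation p = 0.0141, adjusted p = 0.0706 over 10 relations), with rho = -0.686 (permutation p = 0.00627). Those 10 include the relation of the Gad1 transcripts with each other, whose negative r follows from their nearly constant sum. That relation lowers the adjusted p of Sst, so Sst is not counted as passing the threshold of 0.1. Without Sham replicate 2 and HF-HI replicate 2, the r with Sst was -0.541 (unadjusted permutation p = 0.0557). Within Sham it was -0.817 (exact p = 0.0242), and within HF-HI -0.335 (exact p = 0.424). Against log2 size factor, r was -0.249 (permutation p = 0.370, adjusted p = 0.941).

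**Figure D3:**
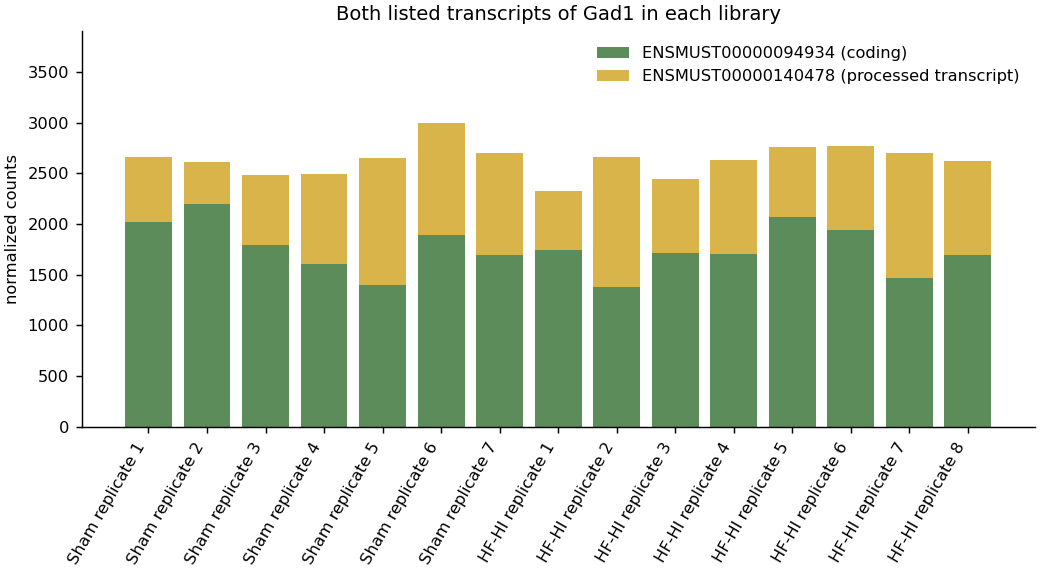
Normalized counts (vertical axis) of the coding (green) and processed (yellow) Gad1 transcripts, stacked, in each of the 15 libraries. The yellow part makes up 15.7% (Sham replicate 2) to 48.2% (HF-HI replicate 2) of the Gad1 reads, while the bar heights stay between 2324 and 2997.

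Covariation was measured over the 36 pairs of the 9 genes, on log2 of the normalized counts summed per gene. Of these, 4 pairs passed an adjusted p under 0.1, all with a positive r, and they formed a group of Gad1, Gad2 and Slc32a1 and a separate pair of Vip and Cck. Over all pairs the median r was 0.054, and 21 of 36 were positive. No pair of a pan-inhibitory gene with a class marker passed in this test, the nearest being Gad2 and Npy (r = 0.534, permutation p = 0.0392, adjusted p = 0.282). With residuals on log2 size factor, Gad2 and Npy did pass (r = 0.626, adjusted permutation p = 0.0819). Gad1 and Npy passed without Sham replicate 3 (adjusted permutation p = 0.0436), and with no other library left out.

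**Figure D4:**
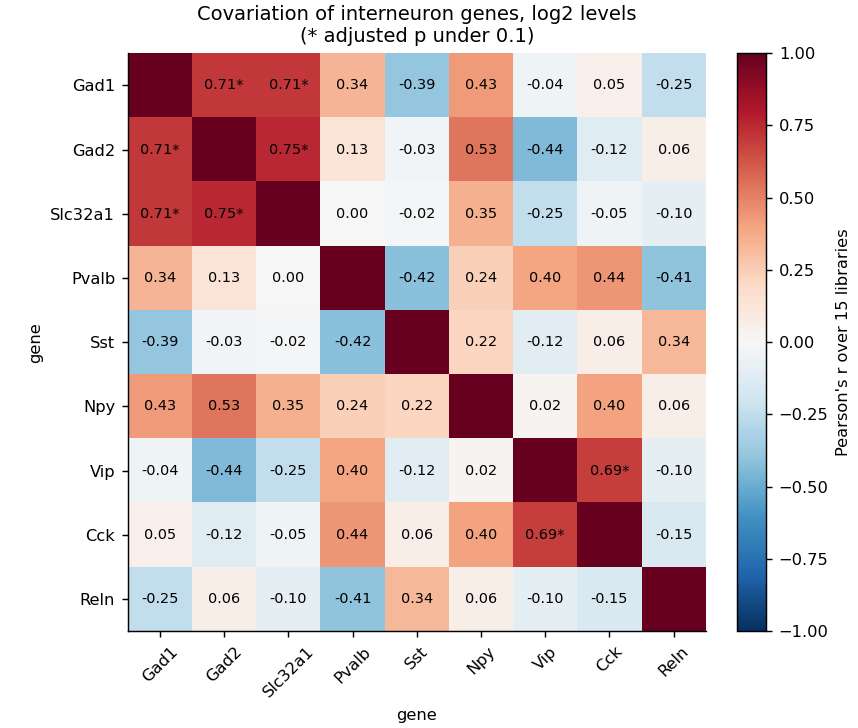
Pearson's r over 15 libraries for each pair of the 9 interneuron genes (rows and columns; colour and number give r). Asterisks mark the 4 pairs with an adjusted p under 0.1: Gad2 and Slc32a1, Gad1 and Gad2, Gad1 and Slc32a1, and Vip and Cck.

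The pan-inhibitory genes rose and fell together, and their adjusted calls depended on a few libraries. Gad2 and Slc32a1 had r = 0.751 (permutation p = 0.00125, adjusted p = 0.0375) and rho = 0.639, Gad1 and Gad2 had r = 0.709 (p = 0.00393) and rho = 0.661, and Gad1 and Slc32a1 had r = 0.708 (p = 0.00417) and rho = 0.550, the adjusted permutation p of each r being 0.0375. By rho the adjusted permutation p was 0.143 for the pairs with Gad2 and 0.259 for Gad1 and Slc32a1, so none passed. With the libraries farthest from the median of the first gene left out, HF-HI replicates 1 and 6 for Gad2 and Slc32a1, the correlation fell to 0.447 (permutation p = 0.125). Without HF-HI replicate 1 and Sham replicate 6, the r of Gad1 and Gad2 was 0.538 (permutation p = 0.0561) and that of Gad1 and Slc32a1 was 0.393 (permutation p = 0.185). The calls of these pairs therefore depended on those libraries, although leaving out extreme libraries can by itself lower r. None of the pairs passed with HF-HI replicate 1 left out alone, where r was 0.572, 0.560 and 0.522 in the same order. Without HF-HI replicate 3, Gad1 and Gad2 kept an r of 0.670 at an adjusted permutation p of 0.117.

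Within groups, the correlations of the pan-inhibitory genes were high among HF-HI libraries. Gad2 and Slc32a1 had r = 0.90 in HF-HI (exact permutation p = 0.000694) and -0.150 in Sham (exact p = 0.744). HF-HI replicate 1 was the lowest and HF-HI replicate 6 the highest library for both genes. The r within HF-HI was not computed without them. Gad1 and Gad2 had 0.894 and 0.425, and Gad1 and Slc32a1 had 0.909 and 0.409. The difference between the groups, tested for all 36 pairs after the data were seen by exchanging group labels on centred values, had an exact p of 0.0432 for Gad2 and Slc32a1 and did not pass after adjustment (adjusted p = 0.243). In that test the smallest p belonged to Sst and Cck, with r = -0.528 in Sham and 0.871 in HF-HI (exact p = 0.00668, adjusted p = 0.241).

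Vip and Cck had r = 0.694 (permutation p = 0.00390, adjusted p = 0.0375) and rho = 0.689 (adjusted p = 0.143). Both genes were lowest in Sham replicate 4, at 191 and 1247 normalized counts, and next to lowest in HF-HI replicate 2, at 208 and 1283. Without these libraries r was 0.407 (permutation p = 0.166), so the call depended on them. Leaving out extreme libraries narrows the range of levels, which can by itself lower r. Within Sham it was 0.845 (exact permutation p = 0.00933), and within HF-HI 0.582 (exact p = 0.137). Without Sham replicate 4 alone r was 0.562 (adjusted permutation p = 0.266). Without HF-HI replicate 1 or 2 alone the adjusted call was lost too (adjusted permutation p = 0.283 and 0.121), at r of 0.676 and 0.642.

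**Figure D5:**
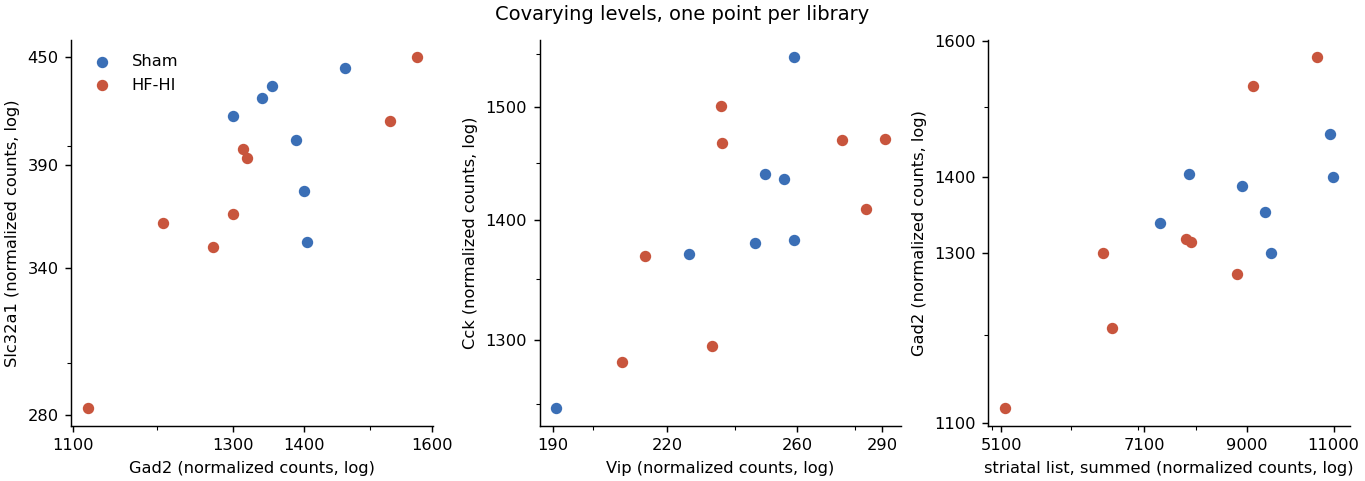
Normalized counts on log axes, with 1 point per library (blue Sham, red HF-HI): Slc32a1 against Gad2, Cck against Vip, and Gad2 against the summed striatal markers. The lowest red point at the left of the left and right panels is HF-HI replicate 1 (Gad2 1117, Slc32a1 282, striatal sum 5144), and the lowest blue point of the middle panel is Sham replicate 4.

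Gad2 and Slc32a1 also moved with striatal markers. Of 72 relations of members with 8 summed marker lists, 4 passed an adjusted p under 0.1. Gad2 had r = 0.785 with the striatal list (permutation p = 0.00067, adjusted p = 0.0482; rho = 0.682, adjusted p = 0.190) and Slc32a1 had r = 0.741 (permutation p = 0.00172, adjusted p = 0.0590; rho = 0.618, adjusted p = 0.230). Gad1 did not pass against that list (r = 0.591, permutation p = 0.0205, adjusted p = 0.245). Without HF-HI replicates 1 and 4, the r of Gad2 was 0.654 (permutation p = 0.0157) and that of Slc32a1 was 0.469 (permutation p = 0.108). Neither passed the adjusted threshold without HF-HI replicate 1, where r was 0.656 for Gad2 and 0.531 for Slc32a1 (adjusted permutation p = 0.417 and 0.569). Without HF-HI replicate 3 or 6 the adjusted calls were lost as well, at r of 0.760 and 0.764 for Gad2 and of 0.735 and 0.711 for Slc32a1, and that of Slc32a1 was also lost without Sham replicate 6, at an r of 0.711. Within Sham they were 0.396 and 0.204, and within HF-HI 0.882 (exact p = 0.00384) and 0.863 (exact p = 0.00652).

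After regression on the striatal list, the r of Gad2 and Slc32a1 was 0.406 (permutation p = 0.133), that of Gad1 and Gad2 0.490 (p = 0.0628 by permutation), that of Gad1 and Slc32a1 0.498 (permutation p = 0.0589), and that of Vip and Cck 0.648 (permutation p = 0.00902). None of the 36 pairs then passed the adjusted threshold. The summed striatal level differed between groups by -0.27 in log2 units (exact two-sided permutation p = 0.0895, adjusted p = 0.358 over 8 lists). The summed level of the excitatory list was higher in HF-HI by 0.09 in log2 units (exact permutation p = 0.00762, adjusted p = 0.0609). With the mean of the deposited values it was 0.022 (adjusted exact permutation p = 0.372). Leaving out Sham replicate 3, 6 or 7, or any of HF-HI replicates 3, 4, 6, 7 and 8, gave 0.075 to 0.087 in log2 units, with adjusted exact p of 0.103 to 0.123. The part of these markers in the levels of the members was not tested beyond those values.

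Oligodendrocyte markers, listed for 6 of 6 genes with sums of 27700 to 31827 normalized counts in Sham and 26104 to 32748 in HF-HI, gave the other relations that passed. Gad1 had r = 0.725 with them (permutation p = 0.00246, adjusted p = 0.0590; rho = 0.671, adjusted p = 0.190) and Gad2 had r = 0.695 (permutation p = 0.00425, adjusted p = 0.0765; rho = 0.579, adjusted p = 0.294). Without HF-HI replicates 1 and 2, these were 0.646 (permutation p = 0.0161) and 0.669 (permutation p = 0.0126). Neither adjusted call held without HF-HI replicate 1 (r = 0.579 and 0.518, adjusted permutation p = 0.569 for both), HF-HI replicate 3 (0.694 and 0.660) or HF-HI replicate 6 (0.706 and 0.662), and that of Gad2 was also lost without HF-HI replicate 7 or Sham replicate 1, 2, 6 or 7, at r of 0.673 to 0.703. Within Sham they were 0.560 (exact p = 0.195) and 0.791 (exact p = 0.0381), and within HF-HI 0.863 (exact p = 0.00744) and 0.735 (exact p = 0.0366). Pvalb, Sst, Npy, Vip, Cck and Reln passed against none of the 8 lists, at an adjusted permutation p of 0.156 or more. The nearest was Reln with the thalamus list, here Slc17a6 alone (r = -0.634), at -0.340 within Sham and -0.898 within HF-HI (exact p = 0.00365). Pvalb had r = 0.515 with that list (adjusted permutation p = 0.387), at 0.930 within Sham (exact p = 0.00298) and 0.314 within HF-HI (exact p = 0.458). The exact p-values within groups were not adjusted.

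The genes most like each member were taken over the most abundant transcript of 7739 other genes and 15 libraries, by Pearson's r of the deposited values. For Gad2 they were Mpped2 (r = 0.81), Adcy5 (0.81) and Ankrd63 (0.81), and for Slc32a1 Dach1 (0.84), Kcnab1 (0.83) and Reep2 (0.82). For Gad1 they were Usp6nl (0.88), Cst3 (0.85) and Actb (0.84). Slc32a1 stood at rank 18 for Gad2 and Gad2 at rank 14 for Slc32a1, while Gad1 stood at rank 823 for Gad2 and 1416 for Slc32a1. For Gad1, Gad2 stood at rank 1201 (r = 0.33) and Slc32a1 at rank 1807 (r = 0.24). The Gad1 pairs that passed on gene sums did not pass on the deposited values of the most abundant transcript (adjusted permutation p = 0.629 with Gad2 and 0.868 with Slc32a1).

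For the class markers, the closest genes were not other members. Sst was closest to Agpat1 (r = 0.93), Igsf21 (0.88) and Ssbp4 (0.86), Pvalb to Sgpp1 (0.81), Mfsd6 (0.81) and Rxrb (0.77), and Npy to Afap1l1 (0.81), Tln2 (0.81) and Ubl3 (0.81). Vip was closest to Ephx4 (0.82), Mef2c (0.81) and Ccny (0.80), Cck to Psma5 (0.83), Rheb (0.83) and 1110008P14Rik (0.81), and Reln to Dtnb (0.83), Sike1 (0.79) and Crkl (0.78). Cck stood at rank 44 for Vip and Vip at rank 50 for Cck.

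Lists of other genes around GABAergic signalling held 118 transcripts, of which 16 had an unadjusted limma p under 0.05 and none an adjusted p under 0.35. With the striatal list as a covariate, 10 of the 118 passed the unadjusted threshold, while the calls over all transcripts went from 916 to 836. The part of striatal cells in these calls was not tested. Other interneuron genes, 34 transcripts of 21 listed genes, had 3 higher and 5 lower in HF-HI (23.5%, against 8.83% of all transcripts), with a median VSD difference of 0.0086 beside -0.0013 over all transcripts. The median was 0.025 for the receptors and signalling of the peptides and of reelin, and lay between -0.015 and -0.0060 for the other lists. Calb1, the calcium-binding protein calbindin, was 721 ± 40.4 normalized counts (SD) in Sham and 653 ± 38.3 in HF-HI, with 1 of 8 HF-HI libraries above the Sham median (limma unadjusted p = 0.00645, adjusted p = 0.398). Cplx1, a complexin of the synaptic vesicle machinery, was 2135 ± 78.0 and 2357 ± 176, with 7 of 8 above (limma unadjusted p = 0.00650, adjusted p = 0.398). A Nacc2 transcript was 408 ± 157 and 251 ± 37.7 (limma unadjusted p = 0.00465, adjusted p = 0.369), while the log2 difference of its gene sum was 0.03 (limma unadjusted p = 0.474).

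The list of receptors and signalling of the peptides and of reelin held 9 transcripts. At an unadjusted limma p under 0.05, 2 were higher and 1 lower in HF-HI (33.3%). Over all transcripts the share was 8.83%, with 4.94% higher and 3.9% lower. Vipr1, a receptor of the Vip peptide, had a mean of 223 ± 26.5 normalized counts across Sham libraries and 263 ± 23.6 across HF-HI libraries, with 8 of 8 HF-HI libraries above the Sham median (limma unadjusted p = 0.00818, adjusted p = 0.404). Lrp8, a reelin receptor, was 404 ± 31.5 and 473 ± 66.0 (limma unadjusted p = 0.0183, adjusted p = 0.476), and Fyn, a kinase of reelin signalling, was 491 ± 29.9 and 443 ± 47.5 (limma unadjusted p = 0.0337, adjusted p = 0.531). The ligands of these receptors among the members, Vip and Reln, had log2 differences of 0.03 each.

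The remaining lists had few calls, at shares below the background apart from the 7 transcripts of the perineuronal net. In that list 1 transcript was higher (14.3%): Ncan, the proteoglycan neurocan, at 1847 ± 100 normalized counts over Sham and 1969 ± 70.8 over HF-HI libraries, with 8 of 8 HF-HI libraries above the Sham median (limma unadjusted p = 0.0183, adjusted p = 0.476). GABA transport and breakdown had 1 of 16 transcripts lower (6.25%): Abat, the enzyme that breaks down GABA, at 1610 ± 67.2 and 1515 ± 79.0, with 0 of 8 above the Sham median (limma unadjusted p = 0.0308, adjusted p = 0.525). The inhibitory synapse outside GABA-A subunits had 2 of 32 transcripts higher (6.25%). An Iqsec3 transcript was 117 ± 29.0 and 193 ± 59.0 (limma unadjusted p = 0.00363, adjusted p = 0.351), and its gene sum differed by 0.08 in log2 units (limma unadjusted p = 0.132). Neuropeptide processing and storage had 1 of 20 transcripts higher (5.0%), a Cadps2 transcript at 604 ± 83.9 and 706 ± 104 (limma unadjusted p = 0.0499, adjusted p = 0.565), and Vgf, a granule protein, was 945 ± 153 and 816 ± 100 (limma unadjusted p = 0.0532, adjusted p = 0.570).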

How the data were processed

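The authors prepared stranded total RNA libraries from cortex, aligned reads to mm10 with STAR, then used eXpress to estimate a count for each Ensembl transcript, and deposited values transformed by the variance-stabilizing method of DESeq2, on a log2 scale. The transformation was inverted, and 100.0% of values were whole reads (tolerance 0.1 reads), which gave size factors and normalized counts. The lowest mean was 107.9 normalized counts, so transcripts below that were not analysed here. Reads were 3496103 to 10582858 per library over listed transcripts, and their counting error is given as a coefficient of variation. Names came from GENCODE M21 on GRCm38 (10241 of 10370 transcripts matched).

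Each transcript was fitted with limma 3.58.1 (R 4.3.3), group as the only term, eBayes with trend, two-sided, with Benjamini-Hochberg adjustment over all transcripts and the study's threshold of 0.1. Intervals come from the same model on log2(normalized count + 1). Correlations used 100000 permutations of the pairings (exact within groups), adjusted over 36 pairs, 72 relations with lists or 10 relations of Gad1, and single values an exact permutation over 6435 splits. Named genes were all member transcripts, the 3 genes with the highest r for each member, and up to 3 genes per list with the smallest p. The members and lists were chosen with earlier results of these data known. On simulated counts of 10370 transcripts with 200 changed, 145 were recovered at a log2 change of 0.5 (with 13 false calls) and 180 at 1 (with 12). Alternatives changed the scaling, filter, transformation, covariates and libraries used.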

Additional observations from a re-analysis of the deposited data

Results flagged for a closer look

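Gad1, summed over both transcripts, was 2997 normalized counts in Sham replicate 6, set apart from the other Sham libraries, of which the nearest was 2698 and the median 2647. The gap was 0.581 of the range of the group, above the critical value of 0.568. Of 22 groups of values tested, 1 was set apart in this way, and chance sets apart about 1 in 20.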

How the results depend on the processing

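The 0 of 10 member transcripts at an unadjusted p under 0.05 stayed 0 in every setting except log2 size factor as a covariate, which gave 1 (Npy, VSD difference -0.059, limma unadjusted p = 0.0192). That covariate also lowered all calls at an unadjusted p from 916 to 533 and the wider lists from 16 to 9, and a striatal covariate lowered the lists to 10. At the adjusted threshold 0 transcripts passed with all libraries, and 1 gene did with voom on reads summed per gene. The 4 member pairs became 2 with the deposited value of the most abundant transcript, 0 with residuals on the striatal list and 0 with Spearman's rho. The 4 relations with marker lists became 0 with Spearman's rho, and the 1 marker list that differed became 0 with the mean of deposited values. A further 131 values for these counts stayed within 1.5 times. The cause of the changes was not tested.

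With each library left out in turn, the pairs that passed ran from 0 to 5 and the list relations from 0 to 6. Without HF-HI replicate 1 both were 0, and without HF-HI replicate 3 or 6 the list relations were 0, and without Sham replicate 6 they were 2. The marker lists that differed ran from 0 to 1, the adjusted calls from 0 to 1 (1 without Sham replicate 5, HF-HI replicate 2 or HF-HI replicate 5), the unadjusted calls from 748 to 987 and the wider lists from 11 to 20.

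A replicate block gave 891 unadjusted calls, 14 in the wider lists and 0 for members. Same-numbered libraries did not deviate together (correlations of deviations -0.138 to 0.0905), and 1 of 7 correlated best with its own number. Depth also differed between the groups, so precision was lower in HF-HI.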
